A study of Mus musculus with 2 samples.

Results

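Cluster 7 is a group of 386 cells among 7613 leukocytes sorted from the aorta of Apoe-/- mice, or 5.07% of all cells. Its members are the cells that the deposited cell table assigns to that cluster, and the barcode prefix gave the library of each cell. The deposited name of the cluster is Macrophages, which 9 of the 20 clusters share. By its counts the cluster was neutrophil-like: each of 10 neutrophil markers had its highest level there. Ngp, Camp and Ltf, the genes with the largest ratios to the next highest cluster, encode neutrophil granule proteins.

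All mice lacked apolipoprotein E, which makes them accumulate cholesterol-rich lipoproteins and form aortic plaques, and ate a western diet for 4 weeks. The nt-LNA mice received 30 mg/kg nt-LNA each week and the control mice received saline. LNA usually stands for locked nucleic acid, a stiffened nucleotide used in synthetic oligonucleotides, and the labels do not spell out nt. The arch and thoracic aorta were digested, and CD45+ CD3- live cells were sorted for droplet-based 3' sequencing in 1 library per treatment. The sources used here give no age, sex or strain background of the mice, nor how many were pooled per library.

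Neutrophils are short-lived granulocytes that the bone marrow releases into blood. They make their granule proteins in sequence during maturation: azurophil granules at the promyelocyte stage, specific granules at the myelocyte stage, and gelatinase granules last. Circulating mature cells keep the proteins but have shut down most of the early granule transcripts, while transcripts of the chemokine receptor Cxcr2 and of the growth factor receptor Csf3r accumulate late. In atherosclerosis, neutrophils are recruited to plaques by chemokines and release granule proteins, S100 proteins and chromatin traps.

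The genes that set cluster 7 apart included 3 granule genes on 1 stretch of mouse chromosome 9 and the S100a8 gene on chromosome 3, and their promoter windows are shown because the granule and S100 results turn on these genes. The windows run from 250 bases before to 50 bases after the gene start and come from RefSeq with the build GRCm38.p6. Ngp lies at chr9:110419558-110419857 on the plus strand, Camp at chr9:109849407-109849706 on the minus strand, Ltf at chr9:111019042-111019341 on the plus strand and S100a8 at chr3:90668821-90669120 on the plus strand. The 3 windows on chromosome 9 fall within 1.17 Mb. Capitals mark matches to TTNNGNAA on either strand, a core of the motif of C/EBP proteins, the factors that drive granule gene transcription in myeloid cells.
Ngp: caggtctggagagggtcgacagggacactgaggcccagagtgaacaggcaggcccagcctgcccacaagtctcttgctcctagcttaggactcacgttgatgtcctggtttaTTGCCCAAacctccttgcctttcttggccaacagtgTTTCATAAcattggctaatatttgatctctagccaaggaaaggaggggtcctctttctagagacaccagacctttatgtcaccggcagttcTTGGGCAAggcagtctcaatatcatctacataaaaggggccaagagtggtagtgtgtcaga
Camp: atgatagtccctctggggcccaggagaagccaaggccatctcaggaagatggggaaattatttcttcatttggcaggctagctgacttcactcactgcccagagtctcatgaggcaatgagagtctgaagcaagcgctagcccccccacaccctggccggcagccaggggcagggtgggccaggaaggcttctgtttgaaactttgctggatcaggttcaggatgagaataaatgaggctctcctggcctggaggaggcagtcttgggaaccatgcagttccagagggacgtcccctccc
Ltf: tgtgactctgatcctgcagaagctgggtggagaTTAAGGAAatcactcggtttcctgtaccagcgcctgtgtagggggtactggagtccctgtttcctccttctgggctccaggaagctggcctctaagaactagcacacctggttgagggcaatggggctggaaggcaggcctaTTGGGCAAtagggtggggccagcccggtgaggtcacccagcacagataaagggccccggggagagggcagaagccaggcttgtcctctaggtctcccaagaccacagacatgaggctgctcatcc
S100a8: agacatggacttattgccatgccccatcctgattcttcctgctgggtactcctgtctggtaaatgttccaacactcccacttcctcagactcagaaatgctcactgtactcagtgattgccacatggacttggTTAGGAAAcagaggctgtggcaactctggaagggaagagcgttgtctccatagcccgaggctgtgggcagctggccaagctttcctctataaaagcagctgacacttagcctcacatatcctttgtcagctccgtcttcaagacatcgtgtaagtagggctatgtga
Ngp held 3 matches, Ltf 2, S100a8 1 and Camp 0. TTNNGNAA was in 40.7% of all 32851 promoter windows and in 9 of the 13 windows found for the 15 leading genes of cluster 7. Cebpe and Wfdc21 were the leading genes without a window. GAGGAAG, a core of the motif of the myeloid factor PU.1, was in 13.6% of all windows on either strand and in 3 of the 13 (Lcn2, Ly6g and S100a8). These matches describe letters in a window and are not binding sites.

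Library totals were 4871 nt-LNA cells and 2742 saline cells, and the 20 clusters held 70206506 unique molecular identifiers (UMIs, counted RNA molecules). Cluster 7 held 3615911 UMIs, or 5.15%, a mean of 9368 per cell, in a range over clusters of 1278 to 24869. Mitochondrial genes gave 2.74% of its UMIs, the third lowest share, and ribosomal protein genes gave 15.1%. The libraries shared 2 cell barcodes, 0 of them in cluster 7. The counts pool both libraries within a cluster, so expression is described for cluster 7 as a whole and not by treatment. Apoe, the disrupted gene, had 13.8 CPM (UMIs per 1000000 UMIs of the cluster) in cluster 7 and 0 to 17.5 CPM in the other clusters. The sources used here do not say where these 3' counts lie relative to the disruption, so they are no check of the genotype.

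Cluster 7 made up a smaller share of the nt-LNA library than of the saline library. It held 159 of 4871 nt-LNA cells, 3.26% (exact Clopper-Pearson 95% interval 2.78 to 3.80), and 227 of 2742 saline cells, 8.28% (7.27 to 9.37). The ratio of the shares was 0.394 (0.320 to 0.485). Saline cells formed 58.8% of the cluster (53.7 to 63.8) and 36.0% of all cells. With 1 library per treatment the difference has no replicate check and no test was made. The intervals in this section cover counting error only and leave out variation from mouse to mouse or library to library. Absolute cell numbers per aorta were not measured.

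**Figure D1:**
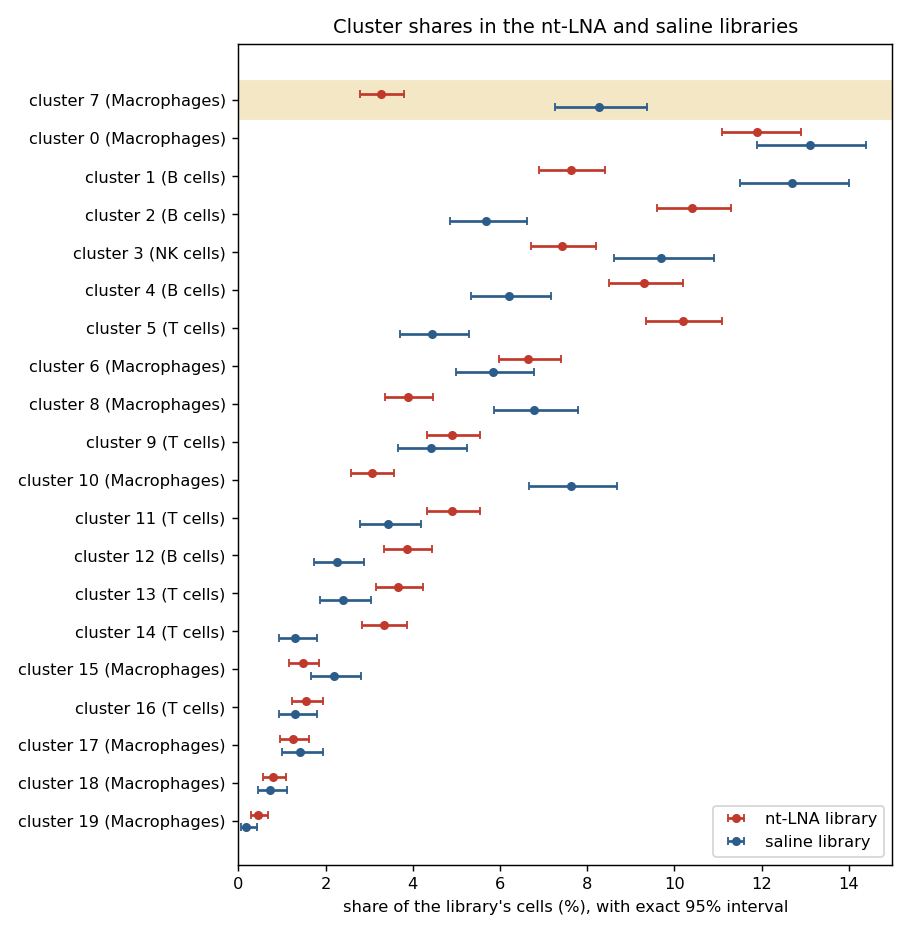
Share of each library's cells (percent, horizontal axis) in each cluster, with nt-LNA in red above saline in blue and bars giving exact 95% intervals. Cluster 7, shaded, held 3.26% of nt-LNA and 8.28% of saline cells, and its intervals do not overlap.

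Setting cluster 7 against single clusters removes the rest of the library from the denominator. There were 107 cluster 7 cells per 100 cells of cluster 10 in the nt-LNA library and 109 in the saline library, a ratio of 0.982 (exact conditional 95% interval 0.726 to 1.33). Cluster 10, also deposited as Macrophages, was the only one of the 19 whose interval held 1. Its own share was 3.06% of nt-LNA and 7.62% of saline cells, a share ratio of 0.401 (0.323 to 0.498). The other 18 ratios all lay below 1. All 19 use the same cluster 7 cells, so they are not separate results. Their direction follows from cluster 7 having the lowest share ratio of the 20 clusters. The share ratio was also below 1 for clusters 8 (0.572) and 1 (0.600), and above 1 for others, such as cluster 5 (2.29). Against cluster 0, the largest cluster, there were 27.3 cluster 7 cells per 100 in the nt-LNA library and 63.2 in the saline library, a ratio of 0.432 (0.337 to 0.554). Against cluster 15, which had the highest summed level of nonclassical monocyte markers, there were 221 per 100 with nt-LNA and 378 with saline, a ratio of 0.584 (0.384 to 0.886). The ratio was 0.689 (0.512 to 0.927) against cluster 8 and 0.657 (0.508 to 0.850) against cluster 1, deposited as B cells. The lowest was 0.156, with an upper limit of 0.239, against cluster 14, deposited as T cells. Within the 9 Macrophages clusters the cluster 7 share ratio was 0.555 (0.450 to 0.682), and among clusters 0, 7, 10 and 15 it was 0.623 (0.505 to 0.766).

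Expression was compared as CPM. Because 1 UMI stands for 1 captured 3' end, no length correction was needed. A gene was counted as higher or lower when cluster 7 differed by more than 2-fold from the mean CPM of the other 19 clusters, with 0.5 CPM added to both. The clusters were made from the same genes, so these counts describe the cluster and test nothing. Of 12780 genes with at least 50 UMIs over all clusters, 760 were higher (5.95%) and 2377 were lower (18.6%). Against the mean of clusters 0, 10 and 15, the myeloid clusters used as a second reference, 512 were higher (4.01%) and 1064 were lower (8.33%). S100a8 and S100a9 alone gave 8.63% of cluster 7 UMIs, which lowers the CPM of every other gene. The median log2 ratio of all genes was -0.46 against the 19 clusters and -0.28 against clusters 0, 10 and 15, and list medians are to be read against these. Counts of list genes are likewise to be read against the shares of all genes, 5.95% higher and 18.6% lower. For clusters 0, 10 and 15 these shares are 4.01% and 8.33%. With S100a8 and S100a9 left out of the totals, the 2 medians of all genes were -0.34 and -0.16, so these genes account for only part of the shift. With the median of the other 19 clusters as the reference the first was -0.16. With median-of-ratios size factors the split was 1020 higher and 1372 lower against the 19 clusters, and 752 higher and 662 lower against clusters 0, 10 and 15. Leaving the 50 leading genes out of the totals gave 696 higher and 837 lower against clusters 0, 10 and 15. Abundant genes of cluster 7 that other clusters held at higher levels were Malat1 (28300 CPM), Tmsb4x (15800 CPM), Actb (11400 CPM), Cd74 (6310 CPM), Ftl1 (6250 CPM), Lyz2 (5360 CPM), Fau (4930 CPM) and Gm42418 (4380 CPM).

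Specific granule genes were high in cluster 7. All 11 genes of the list were higher against the 19 clusters, beside 5.95% of all genes, and each had its highest level in cluster 7, as 3.33% of all genes did. Their median log2 ratio was 5.91, and it was 5.33 against clusters 0, 10 and 15. Ngp, which encodes neutrophilic granule protein, a cystatin-like component of these granules, had 6180 CPM in cluster 7 (exact Poisson 95% interval 6100 to 6260). In the other clusters it lay between 0 and 12.7 CPM with a median of 1.62. Cluster 7 thus held 99.5% of all Ngp UMIs, at 488 times the level of the next cluster. Camp, the precursor of the antimicrobial peptide CRAMP, had 5270 CPM in cluster 7 and 0 to 15.2 CPM elsewhere, with 99.3% of its UMIs in cluster 7. Ltf, which encodes the iron-binding lactotransferrin, had 1020 CPM in cluster 7 and 0 to 6.33 CPM elsewhere. Lcn2, which encodes the siderophore-binding lipocalin-2, had 3210 CPM in cluster 7 and at most 44.2 CPM elsewhere, in cluster 18. For each of these 4 genes cluster 7 had at least 72.7 times the level of the next cluster. The levels are sums over the cells of a cluster, so they do not show whether single cells overlap.

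Several other members of the list had smaller gaps to the next cluster, which was 10 or 15. Whether the cells of those clusters made these transcripts was not tested. Mmp8, neutrophil collagenase, had 407 CPM in cluster 7 and 53.0 CPM in cluster 10. Cd177, a surface glycoprotein of neutrophils, had 136 CPM in cluster 7 and 37.1 CPM in cluster 10. Chil3, a chitinase-like lectin also made by macrophages and monocytes, had 1210 CPM in cluster 7 and 1130 CPM in cluster 10, a ratio of 1.07. Hp, haptoglobin, had 792 CPM in cluster 7, 468 CPM in cluster 10 and 465 CPM in cluster 15. Pglyrp1, which binds bacterial peptidoglycan, had 809 CPM in cluster 7 and 526 CPM in cluster 15.

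Azurophil granule genes differed among themselves. Mpo (myeloperoxidase), Elane (neutrophil elastase) and Ctsg (cathepsin G) had 1 UMI each in cluster 7, 0.277 CPM. Mpo and Ctsg reached 39.8 CPM in cluster 14, and Elane 5.78 CPM in cluster 0. Prtn3, proteinase 3, had 7.47 CPM in cluster 7 and 244 CPM in cluster 19. Ms4a3, a gene of granulocyte-monocyte precursors, had 4.42 CPM in cluster 7 and at most 3.19 CPM elsewhere. Ctsc, the protease that activates these serine proteases, had 240 CPM in cluster 7 and 34.5 to 619 CPM elsewhere. Of the 7 genes 1 was higher and 4 were lower against the 19 clusters, beside 5.95% and 18.6% of all genes. Their median log2 ratio was -1.29. With the median of the other clusters as the reference it was 0.64. That value is set by the 1 UMI each of Mpo, Elane and Ctsg, under the floor of 3 UMIs, over a reference of 0. It therefore gives no direction. Against clusters 0, 10 and 15 the counts were again 1 and 4 and the median was -1.34. Of 12 cell cycle genes 0 were higher and 6 were lower against the 19 clusters, beside 18.6% of all genes lower, with a median of -1.04 (0.43 against the median of the other clusters). Against clusters 0, 10 and 15 none of the 12 passed in either direction and the median was -0.16, above the -0.28 of all genes. Mki67, a marker of dividing cells, had 55.6 CPM in cluster 7 and reached 2760 CPM in cluster 14.

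Genes of the gelatinase granule list were high, with 6 of 6 higher against the 19 clusters (median log2 ratio 3.72), beside 5.95% of all genes. Against clusters 0, 10 and 15 it was 5 of 6 (2.82), beside 4.01%. Mmp9, gelatinase B, had 535 CPM in cluster 7, 31.0 CPM in cluster 10 and at most 59.6 CPM elsewhere, in cluster 19. Fcnb, the pattern-recognising ficolin B, is also counted in the immature neutrophil list described below. It had 26.5 CPM in cluster 7 and at most 3.21 CPM elsewhere. Arg2, an arginase counted in this list, had 103 CPM in cluster 7 and at most 31.0 CPM elsewhere, in cluster 10. Adam8, a membrane protease, had 192 CPM in cluster 7 and 108 CPM in cluster 10. Slc11a1, a metal transporter of phagosomes, was the exception against the myeloid clusters, with 81.3 CPM in cluster 7 against 235 CPM in cluster 15. Cluster 7 thus held high specific and gelatinase granule transcripts beside 1 UMI each of Mpo, Elane and Ctsg.

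**Figure D2:**
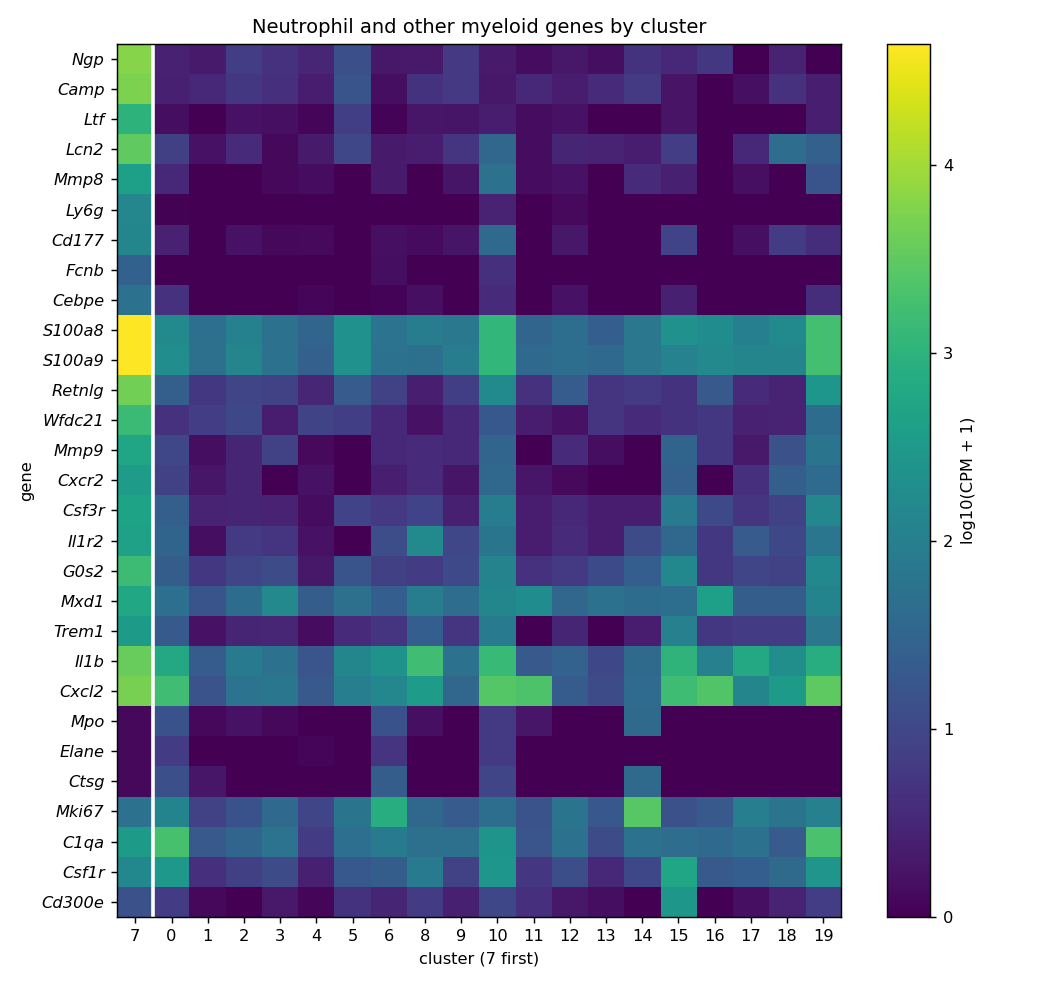
Level of selected genes (rows) in each cluster (columns, cluster 7 first) as log10(CPM + 1). Granule genes such as Ngp and Camp stand out in cluster 7 alone, while S100a8, Il1b and Cxcl2 are also seen in other myeloid clusters, and Mpo, Elane and Ctsg are near 0 in cluster 7.

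Both stage-related lists were high in cluster 7. The 10 genes of the immature list, most of them specific granule genes, were all higher, with a median log2 ratio of 7.16 against the 19 clusters and 5.69 against clusters 0, 10 and 15. Of the 13 genes of the mature list 12 were higher against the 19 clusters (median 4.25) and 11 against clusters 0, 10 and 15 (2.97). Ly6g, the surface antigen used to sort mouse neutrophils, had 141 CPM in cluster 7 (129 to 154) and at most 1.77 CPM elsewhere, in cluster 10. Cebpe, the factor needed for specific granule formation, had 56.1 CPM in cluster 7 and at most 3.54 CPM elsewhere, in cluster 0. Retnlg, a resistin-like secreted protein of mature mouse neutrophils, had 4590 CPM in cluster 7 and at most 268 CPM elsewhere, in cluster 19. Wfdc21, a small secreted protein with a WAP domain, had 1460 CPM in cluster 7 and at most 43.2 CPM elsewhere. Further leading genes were Asprv1, a retroviral-like aspartic protease, with 126 CPM in cluster 7 and at most 8.35 CPM elsewhere, and Chil1, a chitinase-like protein, with 85.2 CPM in cluster 7 and at most 4.98 CPM elsewhere. Mrgpra2b, a G protein-coupled receptor, had 66.1 CPM in cluster 7 and at most 4.47 CPM elsewhere. Since the counts are summed over cells, they do not show whether 1 cell carried genes of both lists.

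S100a8 and S100a9 encode the paired subunits of calprotectin, a calcium- and zinc-binding complex that neutrophils hold in their cytosol. S100a8 had 43800 CPM in cluster 7 and 23.9 to 1780 CPM elsewhere, with a median of 91.3. S100a9 had 42500 CPM in cluster 7 and 25.2 to 1790 CPM elsewhere. Their next highest clusters were 19 and 10, so the gap was 24.6-fold for S100a8 and 23.7-fold for S100a9. S100a11 was also highest in cluster 7, at 2370 CPM with at most 1450 CPM elsewhere. S100a6 had 2900 CPM in cluster 7 and 3630 CPM in cluster 4. Of the 9 S100 genes 4 were higher against the 19 clusters. S100a4 was not among them, with 395 CPM in cluster 7 against 2380 CPM in cluster 8. Neither was S100a10, with 387 CPM in cluster 7 against 1470 CPM in cluster 11. Stefin A genes, a family of cysteine protease inhibitors with near-identical copies in mice, are uncertain because reads may be split among copies. Gm5483 had 201 CPM and Stfa2l1 101 CPM in cluster 7, with at most 46.2 and 26.8 CPM elsewhere.

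Receptors for neutrophil chemoattractants were high. Of 12 genes 8 were higher against the 19 clusters (median log2 ratio 2.69), and 7 against clusters 0, 10 and 15 (1.06). Cxcr2, the receptor for CXCL1 and CXCL2, had 360 CPM in cluster 7 and 0 to 40.2 CPM elsewhere. Cxcr1, a related receptor, had 13.6 CPM in cluster 7 and at most 0.963 CPM elsewhere. Fpr1 and Fpr2, the receptors for formylated bacterial peptides, had 54.2 and 86.0 CPM in cluster 7 and at most 33.5 and 57.9 CPM elsewhere, both in cluster 15. Ccr1, a receptor for CCL3, had 380 CPM in cluster 7 and 227 CPM in cluster 10. C5ar1, the complement C5a receptor, had 220 CPM in cluster 7 and at most 146 CPM elsewhere. Cxcr4, the receptor that retains neutrophils in the marrow, had 448 CPM in cluster 7 and 94.5 to 690 CPM elsewhere. The monocyte receptors Ccr2 and Cx3cr1 had 174 and 50.1 CPM in cluster 7 and reached 1560 CPM in cluster 16 and 237 CPM in cluster 15.

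Csf3r, the receptor for granulocyte colony-stimulating factor, had 499 CPM in cluster 7 (476 to 523), 91.7 CPM in cluster 10, 84.6 CPM in cluster 15 and at most 139 CPM, in cluster 19. Il1r2, the decoy receptor for interleukin 1, had 444 CPM in cluster 7 and 159 CPM in cluster 8. Csf1r, the receptor that sustains monocytes and macrophages, had 143 CPM in cluster 7 and 547 CPM in cluster 15. Growth factor and cytokine receptors as a list were mixed: 8 of 15 were higher and 1 was lower against the 19 clusters, and 4 were higher and 1 lower against clusters 0, 10 and 15.

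Fc, lectin and pattern receptors were mostly shared with the other myeloid clusters. Of 20 genes 18 were higher against the 19 clusters (median log2 ratio 2.40), but 7 were higher and 1 lower against clusters 0, 10 and 15 (0.60). Trem1, which amplifies inflammatory signals, had 343 CPM in cluster 7 and at most 102 CPM elsewhere. Clec4d had 386 CPM and Clec4e 413 CPM in cluster 7, and these lectins for mycobacterial glycolipids had 225 and 346 CPM in cluster 10. Cd33 had 153 CPM and Siglece 58.6 CPM in cluster 7, both sialic acid-binding receptors, with at most 65.5 and 28.7 CPM elsewhere. Fcgr4, an activating IgG receptor, had 76.1 CPM in cluster 7 and 310 CPM in cluster 15. Among adhesion genes 4 of 13 were higher against the 19 clusters, with a median of 0.43. Itgam, the CD11b chain of the integrin Mac-1, had 273 CPM in cluster 7 and 655 CPM in cluster 19.

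**Figure D3:**
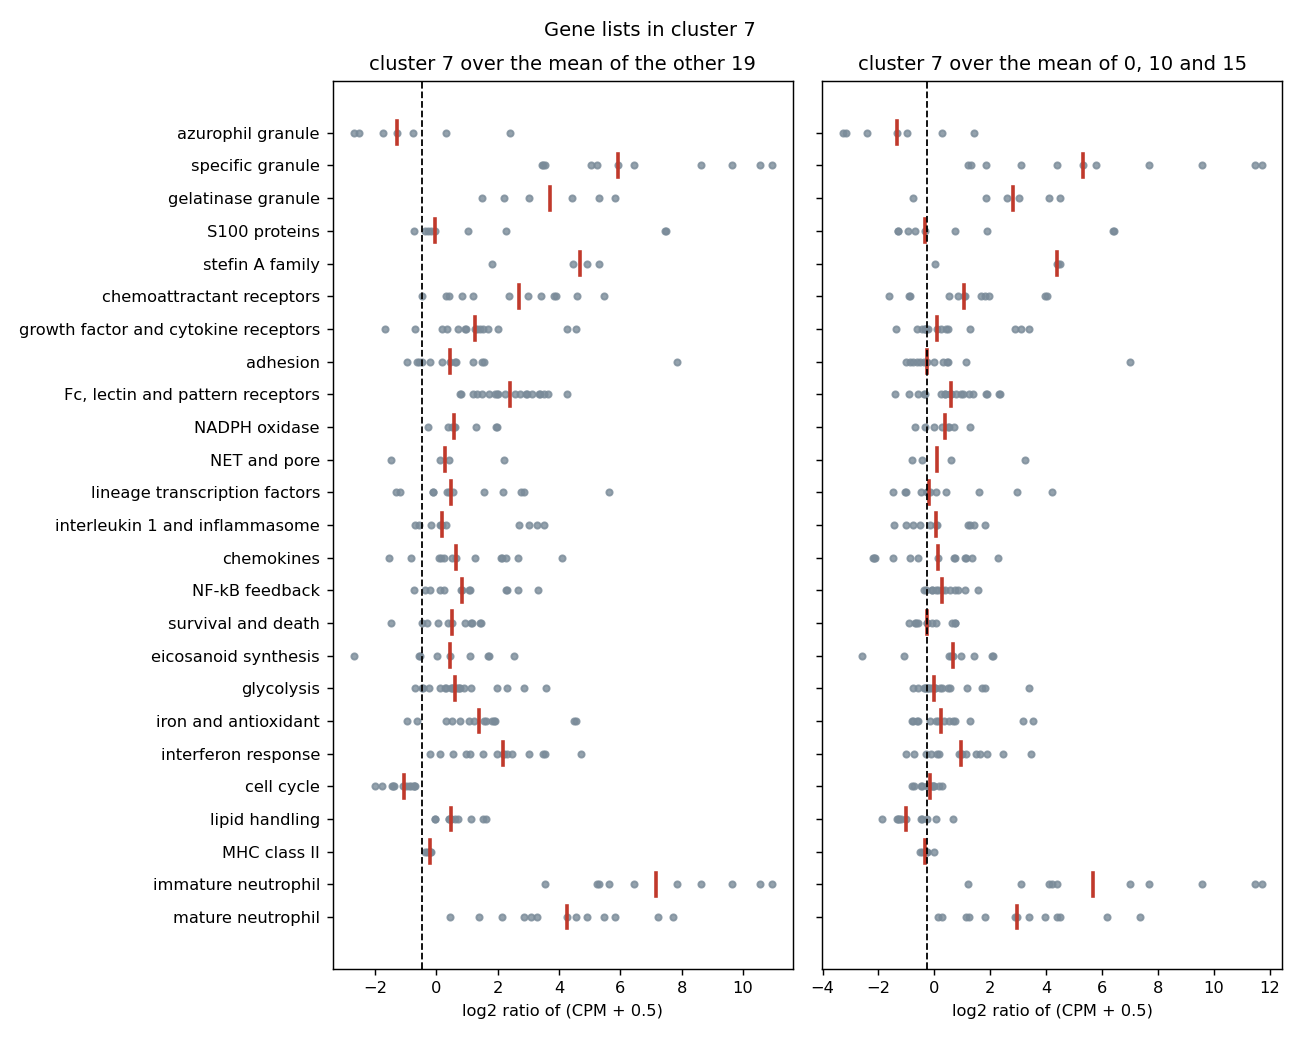
Log2 ratio of (CPM + 0.5) for each compared gene of each list (points), with list medians in red, for cluster 7 over the mean of the other 19 clusters (left) and over the mean of clusters 0, 10 and 15 (right). Dashed lines mark the median of all 12780 genes, -0.46 and -0.28; specific granule and immature neutrophil lists lie farthest to the right.

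Inflammatory cytokine transcripts were abundant. Il1b, the precursor of interleukin 1 beta, had 3660 CPM in cluster 7 (3600 to 3720), 1640 CPM in cluster 8 and 1420 CPM in cluster 10, with a median of 104 elsewhere. Il1f9, which encodes interleukin 36 gamma, had 198 CPM in cluster 7 and at most 19.4 CPM elsewhere, a 10.2-fold gap. Il1rn, the interleukin 1 receptor antagonist, had 348 CPM in cluster 7 and 306 CPM in cluster 10. Nlrp3, an inflammasome sensor, had 228 CPM in cluster 7 and 110 CPM in cluster 10. Il18 had 8.30 CPM in cluster 7 and 65.4 CPM in cluster 17. Pycard, the inflammasome adaptor, had 153 CPM in cluster 7 and 659 CPM in cluster 9. Of the 11 genes 4 were higher against the 19 clusters. Tnf had 105 CPM in cluster 7 and at most 92.2 CPM elsewhere, and Osm, a cytokine of the interleukin 6 family, had 243 CPM in cluster 7 and 225 CPM in cluster 10.

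Chemokine genes lay on both sides of the other myeloid clusters. Cxcl2, a ligand of Cxcr2, had 4970 CPM in cluster 7 (4890 to 5040), 3030 CPM in cluster 19 and 2600 CPM in cluster 10. Cxcl3, another such ligand, had 233 CPM in cluster 7 and 130 CPM in cluster 10. Cxcl5 was at 0 in cluster 7, under a floor of 3 UMIs or 0.830 CPM, and had 3 UMIs over all clusters. Cxcl1, a further Cxcr2 ligand, had 31.5 CPM in cluster 7 and 171 CPM in cluster 19. The monocyte-attracting Ccl2 had 137 CPM in cluster 7, 1290 CPM in cluster 10, 514 CPM in cluster 0 and 96.0 CPM in cluster 15. Ccl7, which acts on the same receptor, had 42.3 CPM in cluster 7, 382 CPM in cluster 10, 176 CPM in cluster 0 and 4.57 CPM in cluster 15. Against cluster 15 alone both log2 ratios turned positive, 0.51 for Ccl2 and 3.08 for Ccl7. Ccl3 and Ccl4, which attract T cells and macrophages, had 625 and 1190 CPM in cluster 7 and were highest in cluster 3, deposited as NK cells, at 1310 and 4320 CPM. Of 13 genes 6 were higher and 1 lower against the 19 clusters, and 4 were higher and 4 lower against clusters 0, 10 and 15.

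Among lineage transcription factors, Cebpe, Mxd1 and Cebpd were highest in cluster 7. Mxd1, an antagonist of Myc that rises in late granulocytes, had 596 CPM in cluster 7, 132 CPM in cluster 10 and at most 414 CPM, in cluster 16. Cebpd had 181 CPM in cluster 7 and at most 133 CPM elsewhere. Cebpb and Spi1, which encodes PU.1, had 2290 and 459 CPM in cluster 7 and were second to cluster 15, which had 2880 and 685 CPM. Irf8, which favours monocyte and dendritic cell fates, had 140 CPM in cluster 7 and reached 2220 CPM in cluster 18. The list had 5 of 12 higher and 2 lower against the 19 clusters, and 3 and 3 against clusters 0, 10 and 15.

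NADPH oxidase genes, which make the oxidative burst, had 3 of 8 higher against the 19 clusters. Ncf1 had 303 CPM in cluster 7 and at most 269 CPM elsewhere, while Cybb, the catalytic chain, had 530 CPM in cluster 7 and 1350 CPM in cluster 15. Padi4, the enzyme that citrullinates histones in chromatin traps, had 44.2 CPM in cluster 7, 7.71 CPM in cluster 10 and 119 CPM in cluster 19. Of the 4 genes of the trap and pore list 1 was higher and 1 lower against the 19 clusters, beside 5.95% and 18.6% of all genes. For eicosanoid synthesis 4 of 9 genes were higher and 1 was lower against the 19 clusters. Alox5ap, the helper protein of 5-lipoxygenase, had 747 CPM in cluster 7 and 715 CPM in cluster 17. Ptgs2, cyclooxygenase 2, had 229 CPM in cluster 7 and 152 CPM in cluster 19. Alox15, the 1 lower gene, had 13.6 CPM in cluster 7, second to cluster 19 with 1720 CPM. Over the other 19 clusters its mean was 90.9 CPM and its median 0. Against clusters 0, 10 and 15 its log2 ratio was 2.05, and 3 genes of the list were higher and 2 lower.

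Interferon-response genes were higher in 11 of 15 cases against the 19 clusters (median log2 ratio 2.17) and in 6 cases against clusters 0, 10 and 15 (0.94). Slfn4, a schlafen gene of myeloid cells, had 223 CPM in cluster 7, 43.0 CPM in cluster 10 and at most 74.5 CPM, in cluster 19. Ifitm6 had 441 CPM in cluster 7 and 216 CPM in cluster 15. Isg15 had 278 CPM in cluster 7 and 224 CPM in cluster 10. Rsad2, the antiviral enzyme viperin, had 139 CPM in cluster 7 and 81.1 CPM in cluster 10. Ifitm3 went the other way, with 1430 CPM in cluster 7 and 3130 CPM in cluster 10.

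Mcl1, which neutrophils depend on for survival, had 1110 CPM in cluster 7 and at most 788 CPM elsewhere, in cluster 10. Of 11 survival genes 4 were higher and 1 was lower against the 19 clusters, and 0 passed in either direction against clusters 0, 10 and 15, where 4.01% of all genes were higher and 8.33% lower. Tnfaip2, a gene induced by tumour necrosis factor, had 509 CPM in cluster 7 and 229 CPM in cluster 19. Of 13 NF-kB feedback genes 6 were higher against the 19 clusters and 2 against clusters 0, 10 and 15.

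Of 20 glycolysis genes 5 were higher and 0 lower against the 19 clusters, beside 5.95% and 18.6% of all genes. Their median log2 ratio was 0.60, above the -0.46 of all genes. Against clusters 0, 10 and 15, 4 were higher and 0 lower, beside 4.01% and 8.33%. The median there was -0.02, above the -0.28 of all genes. The 4 members highest in cluster 7 were Hk3, Slc2a3, Pfkfb4 and Gpi1. Hk3, a myeloid hexokinase, had 71.1 CPM in cluster 7 and 32.6 CPM in cluster 10. Slc2a3, a glucose transporter, had 82.4 CPM in cluster 7, 10.4 CPM in cluster 10 and at most 65.9 CPM, in cluster 16. Pfkfb4, which sets the level of a glycolytic activator, had 46.2 CPM in cluster 7 and at most 26.9 CPM elsewhere, while Gpi1, the glucose phosphate isomerase, had 270.0 CPM in cluster 7 against 266 CPM in cluster 17. Pygl, which breaks down glycogen, had 202 CPM in cluster 7, 65.0 CPM in cluster 10 and 229 CPM in cluster 19. G0s2, an inhibitor of the triglyceride lipase ATGL, had 1520 CPM in cluster 7 and at most 147 CPM elsewhere.

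Iron and antioxidant genes were higher in 9 of 14 cases against the 19 clusters (median log2 ratio 1.39) and in 3 cases against clusters 0, 10 and 15 (0.24). Slc40a1, the iron exporter ferroportin, had 51.7 CPM in cluster 7 and at most 10.4 CPM elsewhere. Steap4, a metalloreductase, had 18.8 CPM in cluster 7 and at most 1.52 CPM elsewhere. Fth1, the ferritin heavy chain, had 12800 CPM in cluster 7 and 13400 CPM in cluster 10.

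Lipid handling genes, several of which mark foam cells, depended on the reference. Of 11 genes 3 were higher and 0 lower against the 19 clusters (median log2 ratio 0.47), while 0 were higher and 6 were lower against clusters 0, 10 and 15 (-1.03), beside 8.33% of all genes lower. Fabp5 had 369 CPM in cluster 7 and 1610 CPM in cluster 10. Lpl had 52.3 CPM in cluster 7 and 263 CPM in cluster 0. MHC class II genes had 0 of 7 beyond 2-fold in either direction against the 19 clusters, beside 5.95% of all genes higher and 18.6% lower. H2-Ab1 had 1930 CPM in cluster 7 and 154 to 8820 CPM elsewhere.

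The genes lowest in cluster 7 relative to clusters 0, 10 and 15 were mostly genes of a single one of them. Cd300e had 47 UMIs in cluster 7, an interval of 9.55 to 17.3 CPM, against 291 CPM in cluster 15, 8.99 CPM in cluster 10 and 5.54 CPM in cluster 0. Ace, Treml4, Adgre4, Eno3 and Hfe had 22.1 to 31.8 CPM in cluster 7 and 256 to 322 CPM in cluster 15. Fabp4 had 56.4 CPM in cluster 7, 54.1 CPM in cluster 0, 111 CPM in cluster 10 and 570 CPM in cluster 15. Jchain, the joining chain of secreted antibodies, had 5.25 CPM in cluster 7, 84.4 CPM in cluster 0, 312 CPM in cluster 10 and 3.05 CPM in cluster 15. Against cluster 0 alone the log2 ratio was positive for Cd300e (1.16), Ace (1.21), Treml4 (2.01), Adgre4 (0.79), Fabp4 (0.06) and Eno3 (0.84).

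**Figure D4:**
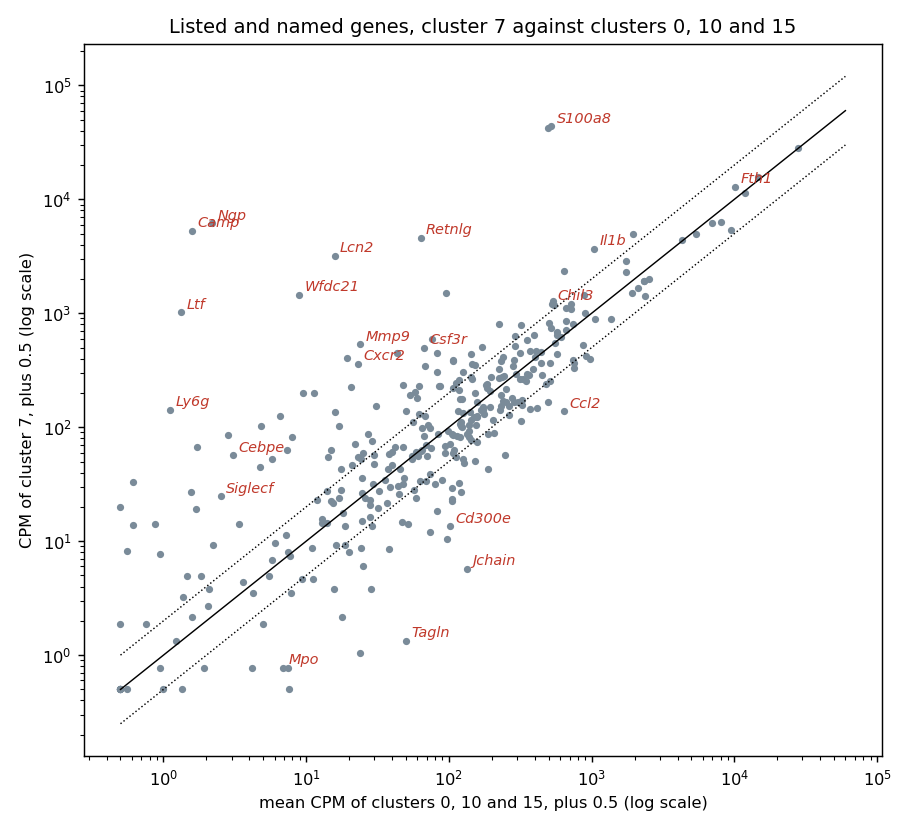
CPM of each listed or named gene in cluster 7 (vertical) against the mean of clusters 0, 10 and 15 (horizontal), both plus 0.5 on log axes, with equality as a solid line and 2-fold limits dotted. Ngp and Camp lie farthest above the line, and Jchain, Cd300e and Ccl2 lie below it.

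By rank correlation over 12780 genes, the profile of cluster 7 was closest to cluster 10 (Spearman 0.955), then to cluster 0 (0.930) and cluster 15 (0.928), and least close to cluster 14 (0.721). Depth differs between clusters and genes are not independent, so these values only order the profiles.

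Markers of other cell types were counted in cluster 7. The neutrophil markers summed to 104000 CPM in cluster 7 and to 63.8 to 4090 CPM elsewhere. The 7 macrophage markers summed to 1420 CPM in cluster 7, where 0 of them were at 0, and to 32.2 to 7190 CPM elsewhere. C1qa, a complement chain of macrophages, had 331 CPM in cluster 7, 1970 CPM in cluster 0 and 254 CPM in cluster 10. Classical monocyte markers summed to 702 CPM in cluster 7 and to 22.0 to 3920 CPM elsewhere, and nonclassical ones to 482 CPM in cluster 7 and to 91.1 to 1900 CPM elsewhere. B cell markers summed to 1210 CPM in cluster 7, where Cd79a had 644 CPM, and reached 10700 CPM in cluster 2. T cell markers summed to 478 CPM in cluster 7 and reached 6810 CPM in cluster 14, although the sort removed CD3+ cells. NK cell markers summed to 293 CPM in cluster 7 and reached 14800 CPM in cluster 3. Dendritic cell markers summed to 108 CPM in cluster 7 and to at most 816 CPM elsewhere, and plasmacytoid ones to 681 and at most 6220 CPM. Platelet markers summed to 77.2 CPM in cluster 7 and to at most 2640 CPM elsewhere, and erythroid ones to 23.0 and at most 340 CPM. The part of these cells, or of free RNA, in the cluster 7 values was not tested.

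Eosinophil and basophil genes are relevant because these granulocytes share surface genes with neutrophils. Siglecf, a sialic acid-binding receptor used to sort eosinophils, had 24.3 CPM in cluster 7 (19.5 to 30.0) and at most 3.68 CPM elsewhere. Of the genes for eosinophil granule proteins, Prg2 was at 0 in cluster 7, under a floor of 0.830 CPM, and reached 11.8 CPM in cluster 4. Epx and Ear6 had 0 UMIs in all 20 clusters, so their absence is not informative about cluster 7. Ccr3, the eotaxin receptor, had 5 UMIs in cluster 7. Gata2, a factor of basophils, mast cells and eosinophils, had 8.85 CPM in cluster 7 (6.05 to 12.5) and at most 4.16 CPM elsewhere. The basophil and mast cell markers summed to 73.3 CPM in cluster 7, of which Cpa3 gave 55.3 CPM, and to 235 CPM in cluster 0. Vessel wall markers summed to 44.5 CPM in cluster 7 and to 507 CPM in cluster 0.

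Transcripts of neutrophils were also counted outside cluster 7, and their proportions differed between clusters. Per 1000 S100a8 UMIs, cluster 7 had 971 S100a9 and 105 Retnlg UMIs, cluster 10 had 999 and 136, and cluster 19 had 1010 and 151. Both clusters thus lay above cluster 7, slightly for S100a9 and more clearly for Retnlg. Ngp had 141 UMIs per 1000 S100a8 UMIs in cluster 7, 0.957 in cluster 10, 0 in cluster 19 and at most 69.1, in cluster 4. Camp had 120 in cluster 7, 0.820 in cluster 10, 0.838 in cluster 19 and at most 115, in cluster 13. Ltf had 23.3 in cluster 7, 1.09 in cluster 10, 0.838 in cluster 19 and at most 28.6, in cluster 5. Lcn2 differed less, with 73.4 in cluster 7, 28.3 in cluster 10, 14.2 in cluster 19 and at most 279, in cluster 18. Cluster 10 thus held 7313 S100a8 UMIs beside 7 Ngp, 6 Camp and 207 Lcn2 UMIs. The high values of clusters 4, 5, 13 and 18 rest on 52 to 217 S100a8 UMIs each.

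Cxcr2 and Mmp9 went the other way in clusters 10 and 15, while 6 of the other 19 clusters lay below cluster 7 for each gene. The values of cluster 15 rest on 293 S100a8, 33 Cxcr2 and 40 Mmp9 UMIs. Per 1000 S100a8 UMIs Cxcr2 had 8.23 UMIs in cluster 7, 29.9 in cluster 10 and 113 in cluster 15, and Mmp9 had 12.2 in cluster 7, 26.4 in cluster 10 and 137 in cluster 15. Over the other 19 clusters together there were 8.42 Ngp, 9.58 Camp, 29.3 Lcn2, 129 Retnlg and 31.9 Cxcr2 UMIs per 1000 S100a8 UMIs.

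**Figure D5:**
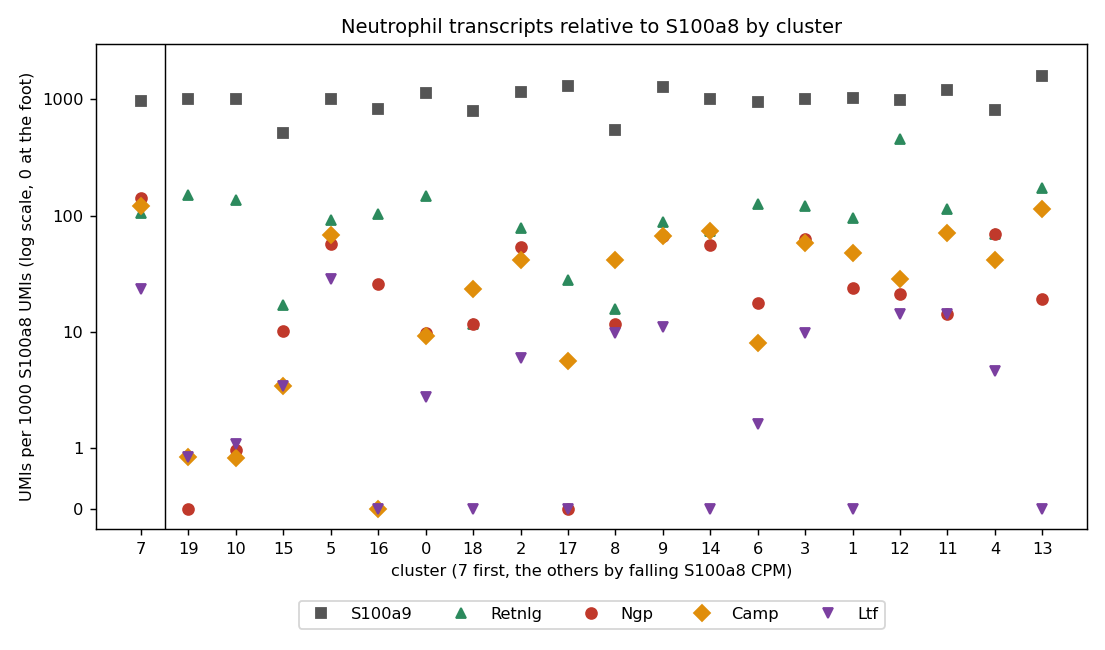
UMIs of 5 neutrophil genes per 1000 S100a8 UMIs (vertical, log scale with 0 at the foot) in each cluster, cluster 7 first and the others by falling S100a8 CPM. S100a9 lies slightly higher, and Retnlg more clearly higher, in clusters 19 and 10 than in cluster 7. Ngp, Camp and Ltf lie at 141, 120 and 23.3 in cluster 7 and near or below 1 in clusters 19 and 10. Lcn2, not drawn, had 73.4 in cluster 7, 14.2 in cluster 19 and 28.3 in cluster 10.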

How the data were processed

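Droplet 3' libraries of sorted aortic leukocytes were made from nt-LNA-treated and saline-treated mice, 1 per treatment. The submitters' processing notes name Cell Ranger 2.1.1, Seurat and mm9; no source used here gives the cell filters, clustering settings or any doublet removal. For each gene and each of 20 clusters the authors deposited 1 UMI count, a whole number that adds up the cells of both libraries. A deposited cell table gives cluster, name and barcode, and its tallies equalled the deposited summary of cell counts (largest difference 0). A deposited table of upper-quartile-scaled values was not used.

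From these, shares with exact Clopper-Pearson and ratios with exact conditional 95% intervals, and CPM with exact Poisson intervals, were computed. Genes needed 50 UMIs over all clusters and log2 ratios used a pseudocount of 0.5 CPM. No p-value was computed and no doublet caller was run, since counts per cell are not used here. Genes were matched by symbol only, and 25166 of 31053 symbols (81.0%) had a RefSeq entry. Promoters use GRCm38.p6, not the authors' build. Because the notes name another build, no coordinates of the counts are given.

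The members, gene lists, markers and rules were chosen with earlier results of these data known. Genes named come from the 15 with the largest ratio to the next cluster (at least 200 UMIs), the 15 with the highest CPM, the 10 highest and 10 lowest against clusters 0, 10 and 15 (the lowest among genes with at least 100 CPM there), up to 4 members per list by CPM and 2 by ratio, and any marker or stage gene. Outside this rule, the list members Cd33, Cebpd, Cxcl1, Cxcl5, Elane, Fcgr4, Fpr1, Fpr2, Gpi1, Hp, Il18, Irf8, Isg15, Lpl, Pfkfb4, Pglyrp1, Rsad2, S100a4, S100a10, Siglece, Slc2a3 and Tnf were chosen after their values were seen. Calculations were tested on simulated counts and run with scipy 1.17.1, pandas 2.3.3 and numpy 2.4.6 under Python 3.11.15, and figures drawn with matplotlib 3.10.9. Alternatives covered denominators, scaling, pseudocount, minimum count and choice of reference clusters.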

Additional observations from a re-analysis of the deposited data

How the results depend on the processing

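The cluster 7 share ratio, nt-LNA over saline, was 0.394 over all cells. It was 0.555 within the Macrophages clusters, 0.623 among clusters 0, 7, 10 and 15, 0.462 without the shallow clusters 2, 5, 14 and 16, and 0.373 to 0.419 with single clusters left out. It stayed below 1 under each of these denominators. Counts of genes moved more. The 2377 genes lower against the 19 clusters became 1372 with median-of-ratios size factors, 1319 with a pseudocount of 2 CPM and 590 against the median of the other clusters, where the 760 higher genes became 1677. Against clusters 0, 10 and 15 the 1064 lower genes became 662 with size factors, 446 with a pseudocount of 2 CPM, 665 with a minimum of 200 UMIs and 1730 against cluster 0 alone, and the 512 higher genes became 1682 against cluster 15 alone.

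The median of azurophil granule genes was 0.64 against the median of the other clusters and 0.64 against cluster 15 alone. Both values are set by Mpo, Elane and Ctsg, with 1 UMI each in cluster 7 over a reference of 0, and give no direction. The median of cell cycle genes turned to 0.43 against the median of the other clusters. Against cluster 0 alone Cd300e was at 1.16, Ace 1.21, Treml4 2.01, Adgre4 0.79, Fabp4 0.06 and Eno3 0.84 in log2. Against cluster 10 alone Cd300e was at 0.51, Treml4 0.24 and Eno3 0.39. Against cluster 15 alone Ccl2 was at 0.51, Ccl7 3.08 and Jchain 0.70. Apart from the azurophil medians, the cause was not tested beyond the references' own construction. Of 74 genes followed, 64 were over 2-fold higher against the 19 clusters, beside 5.95% of all genes. All of these but S100a6, 63 genes, stayed so in every setting. Against clusters 0, 10 and 15, 57 were higher, 44 of them in every setting, and 10 were lower, 0 of them in every setting. The shares of all genes there were 4.01% and 8.33%. The 74 genes came from the naming rule, much of which picks genes by their level or ratio in cluster 7. Their counts are therefore no support for the cluster's traits. List members chosen outside the rule were not followed.

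No paired analysis was possible because each treatment has 1 library. Treatment and library, including mouse, sort and loading, cannot be told apart. Depth limits low genes: 0 UMIs in cluster 7 were read as under 3 UMIs, 0.830 CPM, a one-sided limit, and the exact Poisson 95% interval of Prg2, at 0 there, reaches 1.02 CPM.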
